A study of Homo sapiens with 6 samples.

Results

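The IκB family comprises the proteins that bind Rel family dimers through ankyrin repeats, and 6 of its genes were examined here in human melanoma cells. They were taken by name from the gene tables and make up 6 of the 47432 genes listed. NFKBIZ, BCL3 and NFKBID encode the nuclear members IκBζ, BCL-3 and IκBNS. NFKBIA, NFKBIB and NFKBIE encode the cytoplasmic members IκBα, IκBβ and IκBε. To ask which genes depend on IκBζ in melanoma, the study sequenced RNA of LOX-IMVI, an established human melanoma line kept in RPMI-1640 with FCS and antibiotics. Cells of both groups had been transduced with a lentiviral pLKO.1 construct and selected with puromycin. It was the control construct in shCtrl cells and a short hairpin RNA (shRNA) against NFKBIZ in shNFKBIZ cells, with 3 libraries per group. These libraries come from a single hairpin in a single line, so in them effects of the hairpin on other transcripts cannot be told apart from effects of losing NFKBIZ. The study also sequenced a mouse melanoma line with Nfkbiz knocked out and measured selected target genes in further lines, which are not part of these libraries.

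In resting cells, the cytoplasmic IκB proteins cover the nuclear localization signals of NF-κB dimers and hold them outside the nucleus. Upon stimulation the IκB kinase complex phosphorylates them, an SCF ubiquitin ligase tags them, the proteasome degrades them, and the freed dimers enter the nucleus. The nuclear IκB proteins do not bind DNA themselves but join p50 or p52 on chromatin and raise or lower transcription from there. Several IκB genes are themselves NF-κB target genes, among them NFKBIA, whose product ends the response. NF-κB signalling is often active without a stimulus in melanoma.

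The promoters of the members were searched for the 10-base pattern that Rel dimers read. The windows were those of RefSeq on GRCh38.p14, from 250 bases before to 50 after each transcription start, and 5 of the 6 members had at least 1 window. The loose form, GGG followed by any 5 bases and CC, on either strand, occurred in 58.7% of all 35116 windows and so separates little. The stricter κB consensus, whose matches are all matches of the loose form as well, occurred in 5.91% of all windows and in 7 of the 9 windows of the members. Counted by gene, 7.09% of 27305 genes and all 5 members with a window held it. The matches below are written 5′ to 3′ on the strand of the gene with the consensus match in capitals, and are shown because they are what the members' promoters have in common. They are chr3:101849265-101849294 and chr3:101827757-101827786 (plus strand) for the downstream and the upstream NFKBIZ window, chr19:44748700-44748729 (plus) for BCL3, chr19:35899922-35899951 and chr19:35900613-35900642 (minus) for NFKBID, chr14:35404811-35404840 (minus) for NFKBIA and chr19:38899931-38899960 (plus) for NFKBIB.
NFKBIZ downstream: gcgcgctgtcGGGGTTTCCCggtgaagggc
NFKBIZ upstream: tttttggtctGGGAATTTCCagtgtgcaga
BCL3: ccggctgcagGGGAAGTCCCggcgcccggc
NFKBID first: gggctgagcaGGAATTCCCCttgcgcgggg
NFKBID second: agcgcgacccGGGGACTCCCaggcctgtgg
NFKBIA: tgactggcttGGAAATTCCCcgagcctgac
NFKBIB: gggcgtggtgGGGAATTTCCcgcagggcgg
The matches began at -239 and -223 for NFKBIZ, 3 for BCL3, -198 and -92 for NFKBID, -81 for NFKBIA and -28 for NFKBIB, counted from the start of the window's transcript. The NFKBIB window held a second match on the other strand, 1 base further on at -27. A match describes letters only, and binding at these places was not measured here. The consensus stood in windows of the 4 members called lower on exon reads and in a window of NFKBIB, which was not called on exon reads.

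The libraries held 22264473 to 24624839 exon reads, and replicates of a group differed by more than counting noise (chi-square per degree of freedom 1.69 to 4.18). Intron reads made up 7.16% to 7.46% of gene reads in shCtrl and 7.63% to 8.15% in shNFKBIZ libraries. The pigment lineage markers SOX10, MLANA and S100B were at 0 reads in every library. PMEL, TYRP1, DCT and TYR had at most 11, 4, 2 and 1 exon reads in a library. AXL, in contrast, was at 384 to 432 TPM in shCtrl and 483 to 490 TPM in shNFKBIZ cells. MITF was at 2.83 to 3.58 TPM in shCtrl and 1.72 to 2.16 TPM in shNFKBIZ cells, and CSPG4 at 24.9 to 26.3 and 14.6 to 15.9 TPM. The 9 keratinocyte, immune, endothelial and fibroblast markers had at most 24 reads in a library, the highest being KRT14 with 4 to 10 reads in shCtrl and 19 to 24 in shNFKBIZ. The part of these shifts in the results for the IκB genes was not tested. In a bulk culture, fewer cells that express a gene and less RNA per cell cannot be told apart.

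Knockdown cells had less mRNA of all 3 nuclear IκB genes and of NFKBIA, while NFKBIB and NFKBIE did not pass the test. BCL3 was lowered most, 5.64-fold, beyond NFKBIZ itself at 3.43-fold. NFKBIA was 1.71-fold lower and NFKBID 1.26-fold lower. A gene is called here at an adjusted P of at most 0.05 in the edgeR quasi-likelihood test on exon reads, and past the threshold when the change is at least 2-fold as well. By this measure 4 of the 6 members were called, against 65.3% of the 13843 genes tested, and all 4 were lower, against 32.8% of the genes tested. Past the threshold were 2 of the 6, against 8.96% of the genes tested, and both were lower, against 5.12%. The CPM values of shCtrl and shNFKBIZ were fully separated for 4 of the 6 members and for 68.7% of the genes tested, so that a call in itself was common in this comparison. The median log2 fold change (log2FC, shNFKBIZ against shCtrl) was -0.55 over the members and 0.0043 over all genes tested. NFKBIZ and BCL3 are on the study's own list of IκBζ-regulated genes, which rests in part on these libraries, so their direction is not independent evidence. NFKBIZ is also the target of the hairpin, so its decrease was set by the design, yet it enters these counts and the median. Without it, BCL3 was the only member past the threshold.

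**Figure D1:**
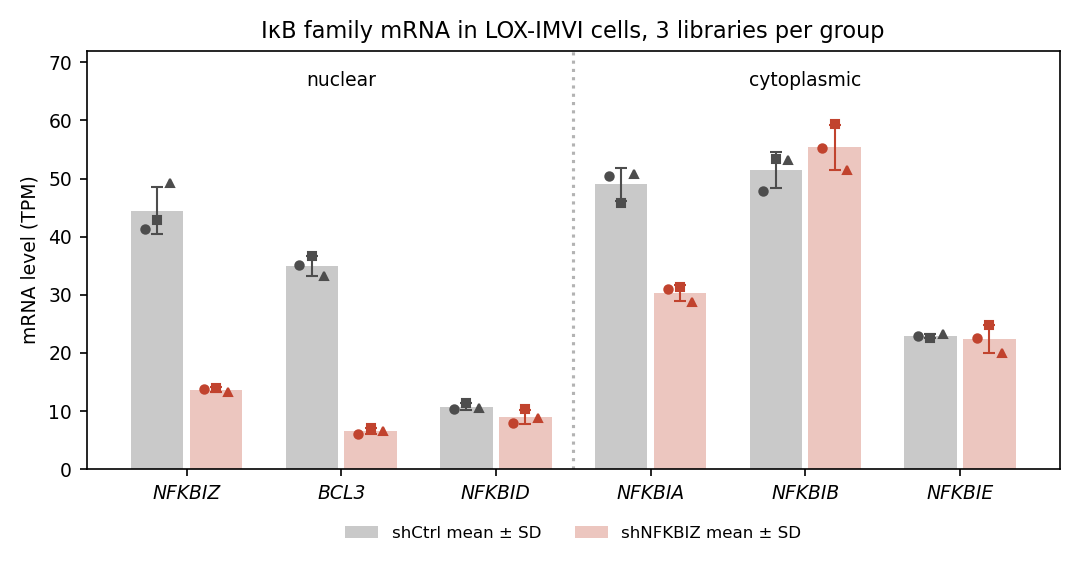
mRNA level of the 6 IκB genes in TPM (exon reads per exon length, scaled to the same total in each library) for shCtrl (grey) and shNFKBIZ (red) cells, with bars for the mean, whiskers for the SD and circles, squares and triangles for replicates 1, 2 and 3. The NFKBIZ, BCL3 and NFKBIA points of both groups are far apart, the NFKBID points of both groups meet near 10.3 to 10.4 TPM, and the NFKBIB and NFKBIE points overlap.

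NFKBIZ is the targeted gene and was examined first. It lies at chr3:101827991-101861022 on the plus strand of hg38 (ENSG00000144802), with 11 annotated transcripts. The counts of exon reads were 1519, 1629 and 1674 for shCtrl replicates 1 to 3, compared with 474, 477 and 468 for shNFKBIZ replicates 1 to 3. In length-corrected units, these were 41.4, 42.9 and 49.2 TPM against 13.7, 14.1 and 13.3 TPM, or 44.5 ± 4.12 and 13.7 ± 0.362 TPM (SD, n = 3). All control libraries lay well above all knockdown libraries, and the knockdown libraries were close to each other. The log2FC of exon reads was -1.78 (SE 0.0581, adjusted P 7.2e-17, edgeR). Ordered by log2FC from the lowest, NFKBIZ took rank 168 of 13843 genes.

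Reads that span an exon junction come from spliced RNA. For NFKBIZ these exon-exon reads numbered 281, 321 and 320 in shCtrl libraries, against 72, 88 and 76 in shNFKBIZ libraries, a log2FC of -1.94 (SE 0.105, adjusted P 3.47e-22, edgeR). Reads within introns come largely from RNA that is not yet spliced, and numbered 252, 251 and 271 in shCtrl and 135, 122 and 125 in shNFKBIZ libraries. Neither kind of read overlapped between the groups. The log2FC of intron reads was -1.11 (SE 0.0983, adjusted P 9.83e-12, edgeR), a smaller decrease than that of exon reads. The exon change minus the intron change was -0.67 (SE 0.111, adjusted P 5.59e-07, edgeR interaction test), and 16.5% of 11025 genes had a called negative difference. Accordingly, introns gave 14.2%, 13.4% and 13.9% of all NFKBIZ reads in shCtrl and 22.2%, 20.4% and 21.1% in shNFKBIZ cells.

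NXPE3, a gene on the same strand, ends inside the NFKBIZ region and shares 15753 bases with it, 47.7% of the NFKBIZ region. Its intron reads numbered 201, 185 and 189 in shCtrl and 139, 134 and 99 in shNFKBIZ libraries, with a log2FC of -0.72 (SE 0.112, adjusted P 2.45e-06, edgeR). Exon reads of NXPE3 changed by only -0.19 on the log2 scale (adjusted P 0.000668, edgeR). How many intron reads in the shared stretch belong to which gene was not tested, and the intron values of NFKBIZ are uncertain to that extent.

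BCL3 encodes a nuclear IκB protein that binds p50 and p52 homodimers and is known as a proto-oncogene of B cells. It lies at chr19:44747705-44760044 on the plus strand (ENSG00000069399). Its level was 35.1, 36.7 and 33.3 TPM in shCtrl and 6.07, 7.14 and 6.52 TPM in shNFKBIZ libraries, from 594 to 730 and 110 to 127 exon reads. The lowest control library was thus far above the highest knockdown library. Means were 35.0 ± 1.71 and 6.58 ± 0.536 TPM (SD, n = 3), with a log2FC of -2.50 (SE 0.0829, adjusted P 9.95e-17, edgeR) and rank 60 of 13843 from the lowest.

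Both exon-exon and intron reads of BCL3 fell. Exon-exon reads numbered 227, 233 and 188 in shCtrl and 33, 43 and 38 in shNFKBIZ libraries (log2FC -2.47, SE 0.132, adjusted P 1.59e-22, edgeR). Intron reads numbered 82, 115 and 87 in shCtrl and 21, 21 and 24 in shNFKBIZ libraries, 4.56-fold lower (log2FC -2.19, SE 0.183, adjusted P 2.14e-12, edgeR). The decrease was therefore present in intron and exon reads alike, and the difference between the changes did not pass the test (-0.30, SE 0.221, adjusted P 0.326, edgeR interaction test). An annotated microRNA within BCL3, MIR8085, had 0 reads in every library.

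The ratio of BCL3 to NFKBIZ TPM was 0.848, 0.855 and 0.677 in shCtrl and 0.443, 0.508 and 0.489 in shNFKBIZ libraries. BCL3 mRNA was hence lower relative to NFKBIZ mRNA in every knockdown library than in any control library. The log2 ratio differed by -0.72 between the groups, and the exact two-sided permutation test gave a p of 0.1, the smallest that 3 against 3 libraries allow.

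NFKBID encodes IκBNS, which binds p50 in the nucleus and is best known from lymphocytes and macrophages. The gene lies at chr19:35887653-35902303 on the minus strand (ENSG00000167604) and had the lowest level of the family in shCtrl cells. Exon reads numbered 205, 234 and 195 in shCtrl and 150, 191 and 166 in shNFKBIZ libraries, or 10.3, 11.4 and 10.6 TPM against 8.01, 10.4 and 8.73 TPM. The TPM ranges met, since shNFKBIZ replicate 2 was slightly above shCtrl replicate 1. Means were 10.8 ± 0.560 and 9.04 ± 1.22 TPM (SD, n = 3), and the log2FC was -0.34 (SE 0.103, adjusted P 0.00681, edgeR). Without shNFKBIZ replicate 1 it was -0.26 and no longer called (adjusted P 0.0529, edgeR, range over all alternatives 8.91e-06 to 0.0529).

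Intron reads of NFKBID showed a larger and more even decrease than its exon reads. Which RNA these intron reads came from was not tested. Intron reads numbered 137, 143 and 129 in shCtrl and 68, 71 and 74 in shNFKBIZ libraries, with no overlap and little spread within a group. The log2FC was -1.03 (SE 0.123, adjusted P 1.29e-08, edgeR), 2.04-fold lower. With library size alone as scaling it was -0.97 and thus short of 2-fold. The exon change minus the intron change was 0.70 (SE 0.161, adjusted P 0.00033, edgeR interaction test), opposite in sign to that of NFKBIZ, and 12.4% of the genes tested had a called positive difference. Introns gave 40.1%, 37.9% and 39.8% of NFKBID reads in shCtrl and 31.2%, 27.1% and 30.8% in shNFKBIZ cells. Exon-exon reads numbered 83, 76 and 61 in shCtrl and 41, 55 and 48 in shNFKBIZ libraries (log2FC -0.58, SE 0.165, adjusted P 0.00252, edgeR). They lay between exon and intron reads in the size of their change. An unnamed gene model on the same strand shares 743 bases with NFKBID and had at most 4 intron reads in a library.

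**Figure D2:**
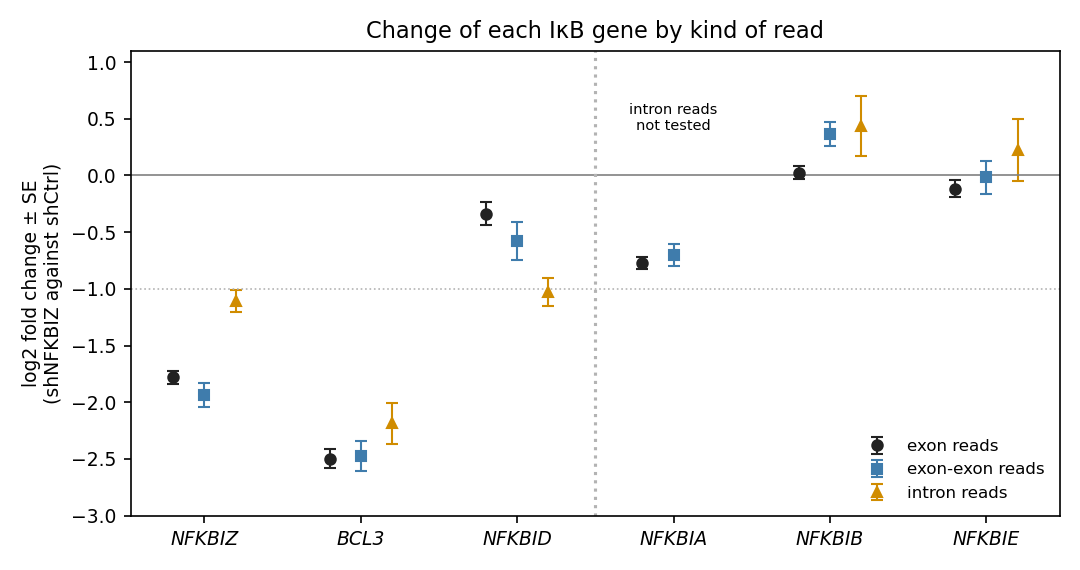
Log2 fold change of each IκB gene in shNFKBIZ against shCtrl cells by kind of read (black, exon reads; blue, exon-exon reads; orange, intron reads), with whiskers for the SE and a dotted line at a 2-fold decrease. For BCL3 the kinds of read lie close together between -2.50 and -2.19, for NFKBIZ intron reads fell less than exon reads, and for NFKBID intron reads fell more.

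NFKBIA encodes IκBα, the main rapid inhibitor of p65-containing dimers. It lies at chr14:35401079-35404749 on the minus strand (ENSG00000100906). Its level was 50.4, 45.8 and 50.8 TPM in shCtrl and 31.0, 31.3 and 28.8 TPM in shNFKBIZ libraries, from 994 to 1064 and 581 to 616 exon reads. The groups were well separated. Means were 49.0 ± 2.78 and 30.4 ± 1.38 TPM (SD, n = 3), with a log2FC of -0.77 (SE 0.0554, adjusted P 5.61e-11, edgeR). NFKBIA was the only cytoplasmic member called on exon reads, and it did not reach 2-fold.

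Exon-exon reads of NFKBIA numbered 244, 254 and 256 in shCtrl and 131, 157 and 166 in shNFKBIZ libraries, a change much like that of all exon reads (log2FC -0.70, SE 0.0950, adjusted P 1.07e-08, edgeR). The annotated gene spans 3671 bases, of which 3394 are exon. Intron reads numbered 3, 1 and 0 in shCtrl and 0, 2 and 0 in shNFKBIZ libraries and were too few to be tested. From the sums of 4 and 2 reads, the ratio was 0.489 (exact 95% interval 0.0442 to 3.41, counting error only), so that no difference in NFKBIA intron reads was detectable at this depth.

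NFKBIB encodes IκBβ, an inhibitor that is degraded more slowly than IκBα. It lies at chr19:38899700-38908893 on the plus strand (ENSG00000104825). Its level was 47.8, 53.3 and 53.2 TPM in shCtrl and 55.3, 59.3 and 51.5 TPM in shNFKBIZ libraries. The groups overlapped. Means were 51.4 ± 3.13 and 55.4 ± 3.91 TPM (SD, n = 3), and the log2FC of exon reads was 0.024 (SE 0.0588, adjusted P 0.737, edgeR). Its approximate 95% interval was -0.091 to 0.14, taken from the SE under a normal distribution, which can be too narrow with 3 libraries per group. TPM is scaled by library totals alone, unlike the fit. With library size alone as scaling, the log2FC was 0.11 and not called (adjusted P 0.104, edgeR).

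The exon-exon reads of NFKBIB gave another picture. They numbered 117, 137 and 117 in shCtrl and 158, 162 and 149 in shNFKBIZ libraries and did not overlap, with a log2FC of 0.37 (SE 0.106, adjusted P 0.00285, edgeR). These reads were added as an alternative after the data were seen. Their share of NFKBIB exon reads lay between 16.4% and 17.2% in shCtrl and between 20.4% and 20.98% in shNFKBIZ libraries, while over all genes it stayed between 28.6% and 29.1%. Intron reads numbered 18, 17 and 17 in shCtrl and 26, 20 and 29 in shNFKBIZ libraries, with a log2FC of 0.44 that did not pass the test (SE 0.267, adjusted P 0.199, edgeR). SIRT2 lies on the opposite strand and shares 163 bases with the start of NFKBIB, and strand was not used in counting. Exon reads of SIRT2 had a log2FC of -0.099 (adjusted P 0.283, edgeR).

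NFKBIE encodes IκBε, a late and slowly acting inhibitor. It lies at chr6:44258166-44265788 on the minus strand (ENSG00000146232). It had 368, 375 and 347 exon reads in the control and 340, 369 and 307 in the knockdown libraries. The groups overlapped, and only shNFKBIZ replicates 1 and 3 were below every control library in reads. Means were 22.95 ± 0.353 and 22.5 ± 2.43 TPM (SD, n = 3), and the log2FC was -0.12 (SE 0.0773, adjusted P 0.199, edgeR). The approximate 95% interval, taken from the SE in the same way as for NFKBIB, was -0.27 to 0.036. Exon-exon reads of NFKBIE numbered 68 to 81 in shCtrl and 63 to 82 in shNFKBIZ libraries (log2FC -0.016, adjusted P 0.938, edgeR). Intron reads numbered 16 to 21 and 21 to 23, and their change did not pass the test either (log2FC 0.23, SE 0.270, adjusted P 0.543, edgeR).

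Across the family, 3 of the 5 members that could be tested on intron reads were called, against 38.8% of 12119 genes. These were the 3 nuclear members, all lower, against 19.5% of the genes tested. All 3 were past the threshold, against 6.6% past the threshold in either direction and 3.89% past it and lower. They include NFKBIZ, the target of the hairpin, as do the later counts of this paragraph. NFKBIA had too few intron reads to be tested. NFKBIB and NFKBIE were measured less precisely on intron reads, with an SE of 0.267 and 0.270 against 0.0983 to 0.183 for the nuclear members. CPM values were fully separated for 3 of the 5 members and for 48.2% of the genes tested. On exon-exon reads, 5 of 6 members were called against 54.9% of 10622 genes. Of these, 4 were lower against 27.9% and 1 was higher against 27% of the genes tested. Past the threshold were 2, against 6.59%, both lower, against 4.1%. CPM values were fully separated for 5 of 6 members and for 59.3% of the genes tested. The exon and intron changes differed for 2 of the 5 members with both, against 28.9% of the genes tested.

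With levels compared per length, the order in shCtrl cells was NFKBIB, NFKBIA, NFKBIZ, BCL3, NFKBIE and NFKBID. NFKBIB, NFKBIA and NFKBIZ overlapped in TPM and did not differ beyond their spread, whereas the other 3 were set apart from each neighbour. In shNFKBIZ cells the order was NFKBIB, NFKBIA, NFKBIE, NFKBIZ, NFKBID and BCL3, with no overlap between neighbours. BCL3 thus moved from the fourth to the last place, and NFKBIE from the fifth to the third without a called change of its own.

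The summed level of the nuclear members was 86.8, 91.0 and 93.0 TPM in shCtrl and 27.8, 31.6 and 28.6 TPM in shNFKBIZ libraries. That of the cytoplasmic members was 121, 122 and 127 TPM in shCtrl and 108.8, 115.5 and 100.3 TPM in shNFKBIZ libraries. Both sums were lower in every knockdown library, the nuclear sum by far more. Nuclear members held 41.7%, 42.8% and 42.2% of the summed IκB TPM in shCtrl and 20.3%, 21.5% and 22.2% in shNFKBIZ libraries, or 42.3% ± 0.531 and 21.3% ± 0.924 (SD, n = 3). Without NFKBIZ itself the share of the nuclear members was 27.1% ± 1.36 and 12.6% ± 0.998 (SD, n = 3). The shares are a description of mRNA and carry no test.

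**Figure D3:**
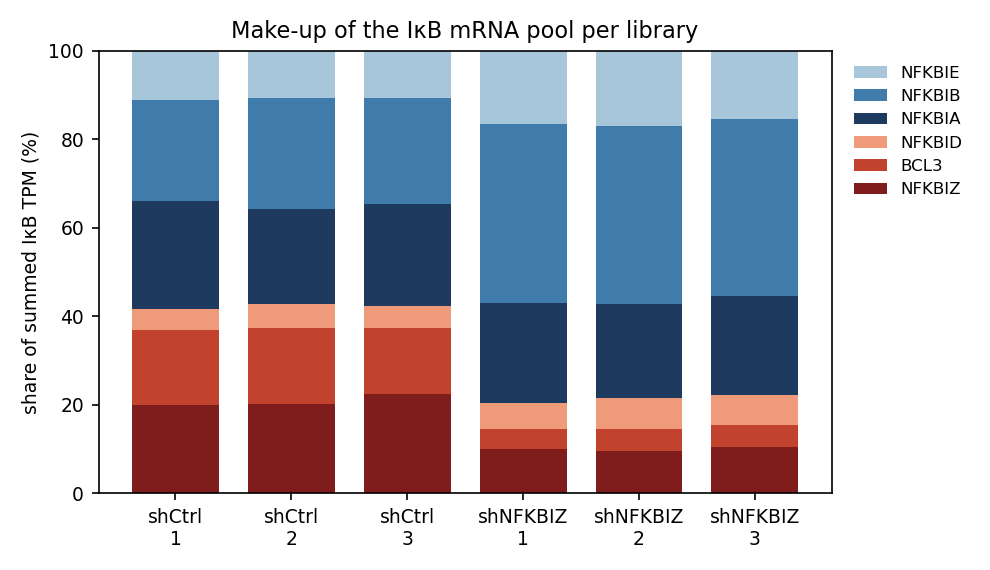
Share of each IκB gene in the summed IκB TPM, in percent, for each of the 6 libraries, with nuclear members in red tones and cytoplasmic members in blue tones. The red part covers 41.7% to 42.8% of the bar in shCtrl libraries and 20.3% to 22.2% in shNFKBIZ libraries.

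Within this pool, BCL3 went from 16.4% ± 1.15 to 4.79% ± 0.313 and NFKBIZ from 20.8% ± 1.32 to 9.98% ± 0.398 (SD, n = 3). NFKBIA kept a similar share, 22.9% ± 1.36 and 22.1% ± 0.730. NFKBIB went from 24.1% ± 1.03 to 40.3% ± 0.272, although its own level was not called as changed. The ratio of NFKBIA to NFKBIB TPM was 1.05, 0.859 and 0.955 in shCtrl and 0.560, 0.528 and 0.559 in shNFKBIZ libraries. IκBα and IκBβ transcripts were thus about equal in control cells and unequal in every knockdown library.

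A list of 23 genes that bind, modify or degrade IκB proteins or control their mRNA was read from the same fit. On exon reads 13 were lower, 2 were higher and 8 were not called, and 1 was past the threshold, with a median log2FC of -0.17. Over all genes tested, 32.8% were lower, 32.5% higher and 8.96% past the threshold. The share called, 15 of 23, was near the 65.3% of all genes tested. With 3 to 5 genes in most role groups, the counts by role are descriptions to be read against these shares. Of the 5 Rel family genes, 4 were lower on exon reads, against 32.8% of the genes tested. On exon-exon reads 2 were lower, against 27.9% of the genes tested. NFKB2 encodes p100, which is cut to p52 and which in its full length has ankyrin repeats and acts as an IκB itself. It was at 46.0, 49.5 and 48.6 TPM in shCtrl and 25.5, 25.6 and 24.8 TPM in shNFKBIZ libraries, with a log2FC of -1.01 (SE 0.0475, adjusted P 4.14e-14, edgeR). It was the list's gene past the threshold, though with library size alone it was -0.92 and short of 2-fold. NFKB1, which encodes p105 and p50, the main partner of the nuclear IκB proteins, had a log2FC of -0.17 (SE 0.0425) and was not called with library size alone (-0.076) or on exon-exon reads (-0.12). REL changed by -0.62 (SE 0.0971) and RELA, the p65 gene, by -0.20 (SE 0.0379), while RELB was not called (-0.069, adjusted P 0.361, edgeR). The decrease of REL was not called on exon-exon reads (-0.15, adjusted P 0.646, edgeR).

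**Figure D4:**
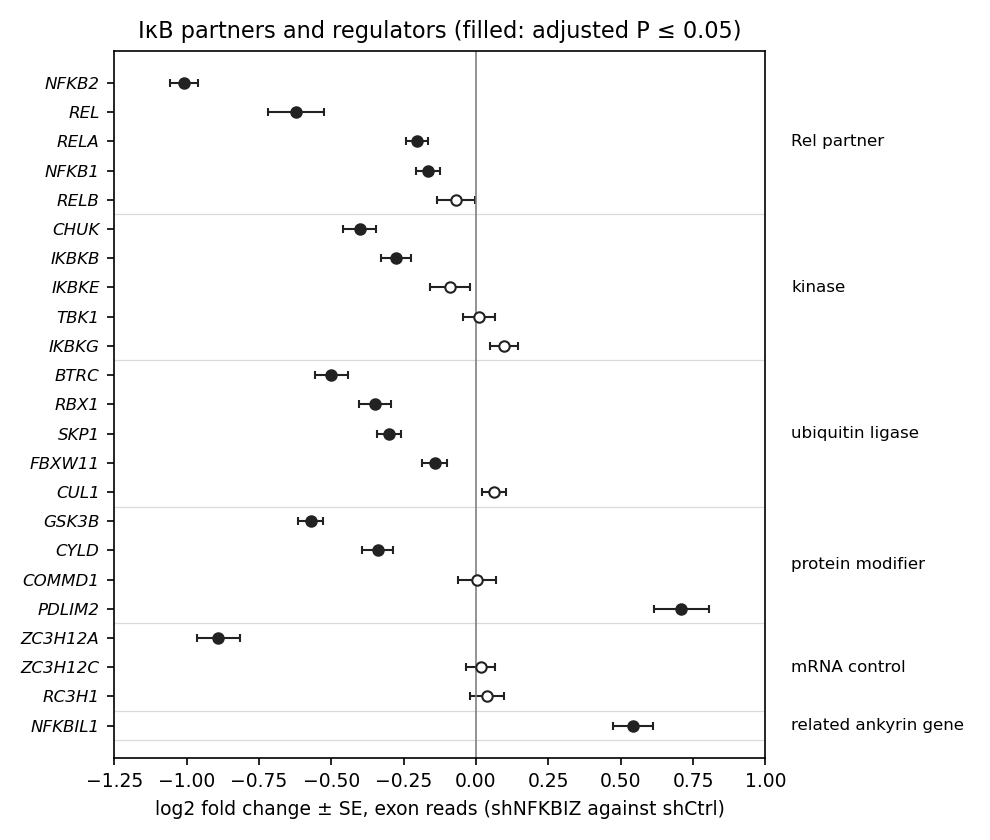
Log2 fold change of exon reads in shNFKBIZ against shCtrl cells for 23 partners and regulators of IκB proteins, grouped by role, with whiskers for the SE and filled points for an adjusted P of at most 0.05. NFKB2 at -1.01 and ZC3H12A at -0.89 are the lowest points, and PDLIM2 at 0.71 and NFKBIL1 at 0.54 are the called points right of 0.

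Of the 5 kinase genes, 2 were lower, near the 32.8% of all genes tested, namely CHUK (IKKα, -0.40, SE 0.0561) and IKBKB (IKKβ, -0.28, SE 0.0503). IKBKG, IKBKE and TBK1 were not called, with values from -0.091 to 0.097. Of the 5 ubiquitin ligase parts, 4 were lower, against the same 32.8% of all genes, namely the substrate receptors BTRC (-0.50, SE 0.0557) and FBXW11 (-0.14, SE 0.0420) and the core parts RBX1 (-0.35, SE 0.0562) and SKP1 (-0.30, SE 0.0422). SKP1 turned to 0.028 when only uniquely mapped reads were counted, and FBXW11 was not called with library size alone or on exon-exon reads. The scaffold gene CUL1 was not called (0.062).

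Among other modifiers, GSK3B, a kinase that phosphorylates BCL-3, was lower (-0.57, SE 0.0431), as was the deubiquitinase gene CYLD (-0.34, SE 0.0538). PDLIM2 encodes a nuclear ubiquitin ligase for p65, which the study also names as a ligase that targets IκBζ. It was higher, from 2.24 ± 0.260 to 3.87 ± 0.234 TPM (SD, n = 3, log2FC 0.71, SE 0.0948). COMMD1 was not called. ZC3H12A encodes Regnase-1, an endonuclease that degrades NFKBIZ mRNA, and was lower, at 35.6, 31.8 and 38.1 TPM in shCtrl and 19.6, 22.6 and 18.1 TPM in shNFKBIZ libraries (log2FC -0.89, SE 0.0746, adjusted P 1.31e-09, edgeR). The other genes of mRNA control, ZC3H12C and RC3H1, were not called, with 0.016 and 0.037. NFKBIL1, an ankyrin-repeat gene named for its likeness to the IκB genes, was higher, with 26.7, 28.1 and 29.6 TPM in shCtrl and 43.4, 45.1 and 41.5 TPM in shNFKBIZ libraries (log2FC 0.54, SE 0.0699, adjusted P 6.07e-07, edgeR).

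The genes whose log2 CPM over the 6 libraries was most like that of each member were also sought, among genes with a mean of at least 50 counts. Each r below is among the highest over all these genes, so a high value follows in part from this choice. Pearson's r was 0.9996 for IGFBP3 and 0.9995 for TSPO with NFKBIZ, and 0.9998 for both ARHGEF18 and RALGAPA2 with BCL3. For NFKBIA, it was 0.9998 for BOD1L1 and 0.9994 for LYAR. All points come from the same 3 control and 3 knockdown libraries, no likeness within a group was computed, and the log2FCs of the genes paired with BCL3 were only -0.29 and -0.84. For NFKBID, the closest genes were CAMKK1 (0.9973) and NDUFB8 (0.9949), for NFKBIE CD320 (0.9947), and for NFKBIB POLR2J3_1 (0.9699, a gene with near-identical copies that can share reads) and SLC66A2 (0.9687).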

How the data were processed

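RNA of shCtrl and shNFKBIZ LOX-IMVI cells was sequenced in 3 libraries per group. The sample titles give each library its group and number. By the account of the study, the 3 libraries of a group were independent experiments. In CLC Genomics Workbench (default settings, strand not used) the authors aligned reads against hg38 and Ensembl genes and deposited whole-number counts of exon, intron and exon-exon reads per gene (total and unique). Total reads include fragments with several hits. TPM was recomputed from exon reads and exon length and equalled the deposited TPM within rounding. It carries no TMM factors, so TPM levels and fitted log2 fold changes rest on different scalings and can differ slightly.

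Counts were tested with the edgeR 4.0.16 quasi-likelihood test in R 4.3.3 (robust glmQLFit, filterByExpr, TMM factors, two-sided, Benjamini-Hochberg over all genes tested), separately for exon, intron and exon-exon reads. The exon minus intron change was tested as an interaction with library blocks. The fits were tested on simulated counts. Log2 CPM used a prior count of 2. The genes named were the 6 members, a list of 23 partners and regulators, genes that overlap a member, and the 2 genes most like each member over the libraries, of which 1 is not reported here. Members, lists and tests were chosen with earlier results of these data known. Alternatives changed the scaling (RLE, or library size alone), the filter (10 or more counts throughout, or none), the test (DESeq2 1.42.0, or the likelihood ratio test of edgeR), the reads (unique, total gene or, added after the data were seen, exon-exon), the abundant genes (without the top 10), the design (replicate block) and the libraries (each left out in turn). Total exon reads were 22264473 to 24624839 per library, and intervals on summed counts cover counting error only. Promoter windows came from RefSeq (GRCh38.p14). No window was matched for NFKBIE.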

Additional observations from a re-analysis of the deposited data

How the results depend on the processing

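NFKBIZ, BCL3 and NFKBIA kept their direction and their call on exon reads under all 17 alternatives, with log2 fold changes from -1.94 to -1.66, -2.55 to -2.41 and -0.81 to -0.68. The number of members called was 3 or 4 on exon or total gene reads, 5 on exon-exon reads and 3 on intron reads. In the fits on exon, exon-exon and intron reads themselves, 65.3%, 54.9% and 38.8% of all genes tested were called. The 2 members past the threshold were the target NFKBIZ and BCL3 under all 17 alternatives to the exon fit. In the exon fit itself, 8.96% of all genes tested were past it. Partners and regulators called numbered from 12 of 23 on exon-exon reads to 16 of 23 on total gene reads. The number of all genes called moved as well, to 5834 of 10622 and 9692 of 15379. With no filter it was 9277 of 24781, with 15 partners and regulators called. NFKBID, with the fewest exon reads, ranged from -0.43 to -0.26 with 1 library left out and was not called without shNFKBIZ replicate 1 (-0.26). NFKBIB was called on exon-exon reads (0.37) and ranged from -0.024 to 0.066 with 1 library left out. It was below 0 without shCtrl replicate 1 (-0.024) and without shNFKBIZ replicate 2 (-0.014). The nuclear share in shCtrl and shNFKBIZ cells was 54.0% and 31.0% in CPM, which is not per length, and 27.1% and 12.6% without NFKBIZ.

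Library size alone moved the median of all genes to 0.094. RELB then turned to 0.021, NFKB1 (-0.076) and FBXW11 (-0.054) were no longer called, and IKBKG (0.19) and CUL1 (0.15) were. On exon-exon reads REL (-0.15), NFKB1 (-0.12) and FBXW11 (-0.095) were not called, and ZC3H12C turned to -0.079. With total gene reads TBK1 (-0.0075) and ZC3H12C (-0.015) turned and COMMD1 was called (0.18). SKP1 turned with unique reads (0.028) and COMMD1 with no filter (-0.0040). With 1 library left out, uncalled genes near 0 changed sign, with ranges of -0.048 to 0.048 for TBK1, -0.041 to 0.051 for COMMD1, -0.021 to 0.050 for ZC3H12C and -0.0025 to 0.084 for RC3H1. The cause of these shifts was not tested.

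The labels do not say whether equal replicate numbers pair the libraries. Same-numbered libraries had correlations of 0.0207, 0.0561 and 0.0288 of their deviations. Differently numbered libraries were not compared, so these values cannot settle whether the libraries are paired. With a replicate block 9303 genes were called on exon reads, against 9039 without it. With a replicate block the log2 fold change was -1.78 for NFKBIZ, -2.50 for BCL3, -0.34 for NFKBID and -0.77 for NFKBIA, and the counts of members called (4) and past the threshold (2) were those without the block.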

Other observations

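Intron reads of the partners and regulators, which come largely from RNA that is not yet spliced, were read as well. Of the 23 genes, 21 could be tested, of which 3 were lower, 3 higher and 15 not called, against 38.8% of all genes called. IKBKB (-0.47, adjusted P 1.97e-05, edgeR), GSK3B (-0.38, adjusted P 0.00315, edgeR) and REL (-0.94, adjusted P 0.0291, edgeR) were lower in intron reads, as in exon reads. COMMD1 (0.46, adjusted P 2.22e-05, edgeR) and CUL1 (0.27, adjusted P 0.00983, edgeR) were higher in intron reads and not called on exon reads. SKP1 was higher in intron reads (0.69, adjusted P 0.0276, edgeR) and lower in total, but not in unique, exon reads. NFKB2 was not called on intron reads (-0.64, SE 0.360, adjusted P 0.163, edgeR), and ZC3H12A was just outside the limit (-0.30, adjusted P 0.0510, edgeR). Whether the exon and intron changes of these genes differ is not given here.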
